A study of Mus musculus with 14 samples.

Results

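S100a1, S100a4, S100a6, S100a10, S100a11 and S100a13 are genes of the S100 family other than the S100a8 and S100a9 pair that marks neutrophils. They were taken by symbol from the table of normalized counts, which held all 6 members among 14329 genes. Microglia, the resident macrophages of the central nervous system, were sorted from the dorsal horn of the spinal cord as CD45low CD11b+ CX3CR1+ cells, and bulk RNA-seq was performed on 2000 cells per sample. The mice were 6 months old and were examined at day 5 after serum transfer (ST). WT mice were C57BL/6J. TASTPM mice, a model of Alzheimer's disease on the same background, were heterozygous for their transgenes, which include mutant human APP under a murine Thy-1 promoter that is active in neurons. Serum from K/BxN mice, which transfers inflammatory arthritis, was given to 4 WT and 4 TASTPM mice, and control serum to 3 mice of each genotype. The question was how the serum and the genotype changed these transcripts.

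S100 proteins are small, mostly dimeric proteins with a pair of EF-hand loops, which in most members change shape when they bind calcium and then expose a surface for target proteins. S100a10 (p11) is the exception: its loops no longer bind calcium, and it holds annexin A2 at the plasma membrane, where the complex also binds plasminogen and Ahnak. S100a11 binds annexin A1, S100a6 (calcyclin) binds Cacybp, and S100a4 binds the heavy chain of non-muscle myosin encoded by Myh9. S100a13 is released from cells by a route without a signal peptide together with Fgf1 and Il1a, and S100a1 is best known as a calcium sensor of heart muscle. S100a4, S100a6, S100a10 and S100a11 are strongly expressed by blood monocytes and many other motile cells and weakly by resting microglia.

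All 6 genes lie on chromosome 3 in 3 neighbourhoods. In GRCm39, S100a13 (ENSMUSG00000042312, 90416091 to 90431912, plus strand) and S100a1 (ENSMUSG00000044080, 90418340 to 90421848, minus strand) overlap each other. S100a4 (ENSMUSG00000001020, 90511074 to 90513354) and S100a6 (ENSMUSG00000001025, 90520140 to 90535843) follow on the plus strand, 6.785 kb apart. S100a11 (ENSMUSG00000027907, 93414382 to 93435293) and S100a10 (ENSMUSG00000041959, 93462213 to 93474510) lie 2878.54 kb further on, also on the plus strand and 26.919 kb apart. The second EF-hand loop of each protein is given here as the coding bases of its GENCODE transcript, because it shows how S100a10 differs from the others. Capitals mark the codons that begin with GA, which encode the acidic residues aspartate and glutamate. Not every marked residue holds calcium.
S100a10: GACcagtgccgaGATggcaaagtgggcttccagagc
S100a11: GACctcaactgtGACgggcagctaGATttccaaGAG
S100a6: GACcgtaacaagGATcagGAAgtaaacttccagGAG
S100a4: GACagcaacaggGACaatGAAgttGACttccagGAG
S100a13: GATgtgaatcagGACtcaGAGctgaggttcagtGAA
S100a1: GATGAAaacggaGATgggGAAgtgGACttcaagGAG
S100a10 had 2 such codons in its loop and none at the last position, whereas the others had 4 to 6 and ended with such a codon. At positions 1, 3, 5 and 12 of the loop, S100a10 had 2 of them and each other member had 3. The loop of S100a10 was placed by alignment to S100a1. Over whole proteins, identity between members ran from 25.84% for S100a6 and S100a10 to 50.56% for S100a4 and S100a6. The longest stretch of identical bases between the transcripts of any pair was 13 bases.

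Annotated overlaps touched 3 of the 6 members. S100a4 shared 302 of the 503 bases of its transcript, and 287 of its 303 coding bases, with Gm42674, a readthrough locus on the same strand that is not analysed here. S100a1 shared 62.2% and S100a13 58.1% of the transcript with another gene, mainly with each other on opposite strands. The library kit does not mark strand, so reads of S100a1 and S100a13 in the shared exons cannot be told apart. S100a6, S100a10 and S100a11 shared no bases. How reads in shared exons were assigned is not given in the sources used here, and its part in the low counts of S100a4 was not tested.

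The libraries held 14223015 to 20239175 reads on genes. In 4 libraries, numbers 1 and 2 of WT K/BxN ST and numbers 1 and 2 of TASTPM K/BxN ST, monocyte genes stood far above the other 10. Lyz2 (lysozyme) was at 258065 to 536223 normalized counts there and at 8743 to 22933 elsewhere. Ly6c2 was at 12898 to 29133 against 1.87 to 17.8, and Ccr2, the chemokine receptor of classical monocytes, at 8537 to 27035 against 3.13 to 86.0. The study's gating also excluded cells with surface Ly6C and CCR2. Summed over all 12 classical monocyte markers, all of them in the table, levels were 9030 to 20059 in WT Control ST, 9354 to 680002 in WT K/BxN ST, 13410 to 23580 in TASTPM Control ST and 10814 to 719389 in TASTPM K/BxN ST. The 12 microglial markers, all in the table, summed to 1298407 to 1379174 in WT Control ST, 568938 to 1250251 in WT K/BxN ST, 1004014 to 1280703 in TASTPM Control ST and 350673 to 1161803 in TASTPM K/BxN ST. Neutrophil markers, 13 of 16 in the table, summed to 7924 to 11988, 9734 to 237217, 4118 to 7149 and 7122 to 214397 in the same order of groups. Border-associated macrophage markers, 10 of 10 in the table, summed to 3297 to 3656, 4361 to 38486, 4629 to 8130 and 4286 to 35844. In bulk samples, fewer cells of a type and less RNA per cell cannot be told apart. The same 4 libraries held the Y-linked transcript Ddx3y at 633 to 917 normalized counts with Xist at 0 to 12.5, while the other WT K/BxN ST libraries had Xist at 5816 and 3247 and no Ddx3y. Ddx3y was also present in TASTPM K/BxN ST library 3, at 1048, in TASTPM Control ST library 3, at 1481, and in WT Control ST libraries 1 to 3, at 653, 1027 and 236, where S100a6 was at most 102. WT Control ST library 3 held Xist as well, at 1706, and TASTPM Control ST library 3 held it at 202. The part of these transcripts in the S100 values was not tested, and fold changes are given with and without the 4 libraries.

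S100a10, S100a11, S100a6 and S100a4 were high in those 4 K/BxN ST libraries and low in every other library, and S100a13 was at its highest there by a smaller margin. S100a1 overlapped with the others. Together the members took 0.0529% to 0.117% of the reads in the 4 libraries and 0.00311% to 0.00637% in the other 10. No member passed the test in either genotype. Of the 5 members that passed the filter of at least 10 reads in at least 7 libraries, limma called 0 of 5 in WT at an adjusted p below 0.05 and an absolute log2 fold change above 1, where 0.00791% of all 12645 genes tested were called. It called 0 of 5 in TASTPM, where 0% of all genes were called. S100a4 had 10 reads in 4 libraries only, failed the filter, was fitted together with the 12645 genes and was not called either. At an unadjusted p below 0.05, 1 member (S100a13) was higher in WT and 0 in TASTPM, beside 4.77% and 2.62% of all genes. edgeR called no member in either genotype. DESeq2 without a filter called 0 of 6 in WT, where 1.86% of all genes were called higher, and 1 of 6, S100a6, in TASTPM, where 0.6% were.

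**Figure D1:**
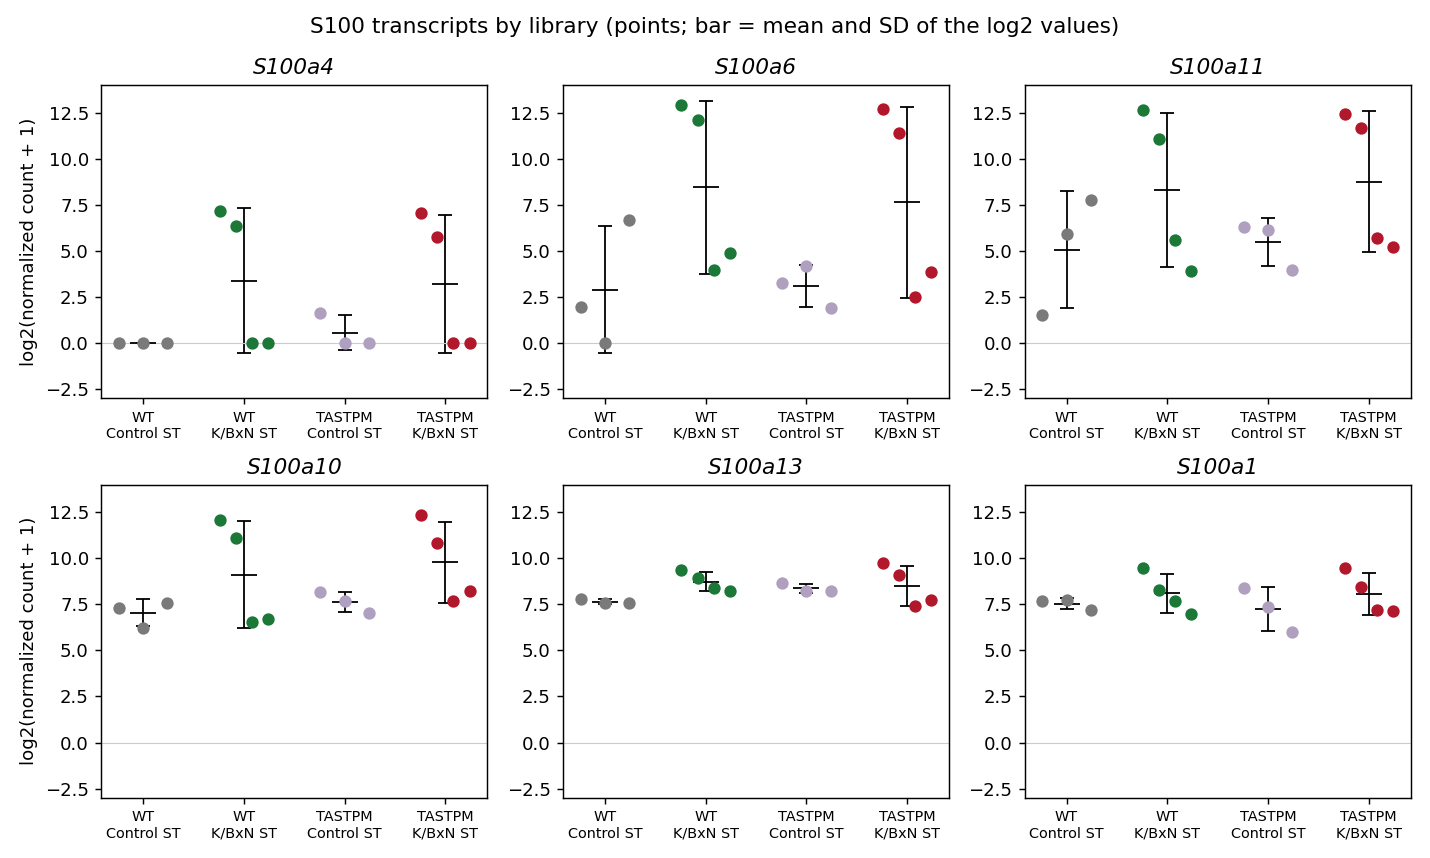
Normalized counts of the 6 S100 transcripts in each library, on a log2 scale after adding 1 (vertical axis), by group (horizontal axis). Points are libraries in the order of the table, and bars give the mean and SD of the log2 values. In both K/BxN ST groups, libraries 1 and 2 stand above libraries 3 and 4, by the most for S100a6 and S100a11.

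S100a10, the annexin A2 partner, had normalized counts of 158, 73.8 and 192 in WT Control ST libraries 1 to 3 and of 4268, 2243, 90.8 and 102 in WT K/BxN ST libraries 1 to 4. Its counts were 286, 205 and 131 in TASTPM Control ST and 5330, 1825, 208 and 299 in TASTPM K/BxN ST. Libraries 1 and 2 of each K/BxN ST group were above all controls, whereas libraries 3 and 4 overlapped with them, except that TASTPM library 4 was just above its controls. The group means were 1676 ± 2002 (SD, n = 4) against 141 ± 60.9 (SD, n = 3) in WT and 1916 ± 2394 (SD, n = 4) against 207 ± 77.7 (SD, n = 3) in TASTPM. On the log2(normalized count + 1) scale, which understates the change of genes with few reads, the limma fold change was 2.06 in WT (SE 1.31, adjusted p = 0.758) and 2.16 in TASTPM (SE 1.31, adjusted p = 0.964). Without the 4 libraries it was -0.44 in WT (SE 0.62, limma adjusted p = 1.00) and 0.34 in TASTPM (SE 0.62, limma adjusted p = 0.996), where K/BxN ST then had 2 libraries a group.

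S100a11, the annexin A1 partner, had normalized counts of 1.87, 59.5 and 212 in WT Control ST and of 6263, 2124, 46.6 and 14.2 in WT K/BxN ST. In TASTPM it was at 78.3, 69.9 and 14.5 in Control ST and at 5559, 3292, 50.5 and 36.1 in K/BxN ST. Its libraries 3 and 4 of both K/BxN ST groups lay inside the range of their controls. Means were 2112 ± 2938 (SD, n = 4) against 91.1 ± 109 (SD, n = 3) in WT and 2234 ± 2694 (SD, n = 4) against 54.3 ± 34.7 (SD, n = 3) in TASTPM. The log2 fold change was 3.23 in WT (SE 2.22, limma adjusted p = 0.774) and 3.28 in TASTPM (SE 2.22, limma adjusted p = 0.964). It was -0.31 (SE 1.62) and -0.02 (SE 1.62) without the 4 libraries, so the values of the high libraries set its direction in both genotypes. Leaving out WT Control ST library 1, at 1.87 normalized counts, lowered the WT value to 1.46, whereas leaving out WT K/BxN ST library 4 raised it to 4.69.

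S100a6, calcyclin, had the widest range of the members. Its normalized counts were 2.81, 0 and 102 in WT Control ST, whereas WT K/BxN ST had 7637, 4348, 14.3 and 28.3. In TASTPM it was at 8.36, 16.7 and 2.73 in Control ST and at 6615, 2729, 4.70 and 13.5 in K/BxN ST. WT Control ST library 3, the highest control, also had the highest hemoglobin transcript Hbb-bs of all libraries, at 16768 normalized counts, and the highest S100a8 of the controls, at 969. Means were 3007 ± 3700 (SD, n = 4) against 35 ± 58.2 (SD, n = 3) in WT and 2340 ± 3125 (SD, n = 4) against 9.25 ± 7.01 (SD, n = 3) in TASTPM. The log2 fold change of 5.58 in WT had an SE of 2.67 and a limma adjusted p of 0.698, with a 95% interval of -0.12 to 11.3. In TASTPM it was 4.53 (SE 2.67, limma adjusted p = 0.964). DESeq2 without a filter gave 7.99 in TASTPM with an adjusted p of 0.0311, where it called 0.6% of all genes higher. The adjusted p ranged from 0.0311 to 0.9998 over the 18 alternatives for this value. Without the 4 libraries the fold change was 1.53 (SE 1.88) in WT and 0.10 (SE 1.88) in TASTPM.

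S100a4, the partner of non-muscle myosin, was read in 5 of the 14 libraries. Libraries 1 and 2 of WT K/BxN ST had 143 and 80.6 normalized counts, and libraries 1 and 2 of TASTPM K/BxN ST had 131 and 52.3. It was at 2.09 in TASTPM Control ST library 1 and at 0 in the other 9 libraries. The mean of WT K/BxN ST was at least 20.4-fold higher than the mean of WT Control ST set at a floor of 3 reads per library. This bound allows for the floor only and rests on libraries 1 and 2, since libraries 3 and 4 were at 0. In TASTPM, 181 reads in K/BxN ST against 2 in Control ST gave a ratio of 71.4 per library, with a 95% interval of 19.5 to 594 that covers counting error only. This ratio used the reads observed in the controls and no floor, so it cannot be compared with the value in WT. Spread between libraries was large beside these ratios, and the fitted log2 fold changes of 3.38 in WT and 2.65 in TASTPM had an SE of 2.12 and limma adjusted p of 0.757 and 0.964. Without the 4 libraries, S100a4 was at 0 in all K/BxN ST libraries.

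S100a13, the member released with Fgf1 and Il1a, was the only member whose groups did not overlap in WT. Its normalized counts were 221, 189 and 189 in WT Control ST, whereas WT K/BxN ST had 649, 490, 328 and 303, so that all 4 libraries were above all 3 controls. Among all genes tested, 3.67% had their WT K/BxN ST libraries entirely above the controls. In TASTPM no member had this pattern, beside 2.67% of all genes. The mean was 442 ± 160 (SD, n = 4) against 200 ± 18.7 (SD, n = 3). The log2 fold change of 1.08 (SE 0.49) had an unadjusted limma p of 0.0457 and did not pass the correction over all genes (limma adjusted p = 0.695), and the 2-sided exact permutation test gave p = 0.0571, the smallest that 4 against 3 libraries allow. Without the 4 libraries the change was 0.66 (SE 0.42, limma adjusted p = 1.00), and both remaining K/BxN ST libraries were above the controls. Those libraries held Xist and no Ddx3y, whereas all 3 WT controls held Ddx3y, and the part of this difference was not tested. In TASTPM it was at 402, 304 and 300 in Control ST and at 857, 546, 167 and 215 in K/BxN ST. Libraries 3 and 4 there lay below all their controls, opposite to the same comparison in WT, and the log2 fold change was 0.12 (SE 0.49, limma adjusted p = 0.989). The difference between the genotypes, the interaction, was -0.96 (SE 0.70, limma adjusted p = 0.9988) and did not pass the test. Without the 4 libraries it was -1.47 (SE 0.59, limma adjusted p = 0.998), and it did not pass either.

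S100a1, the heart muscle calcium sensor, had normalized counts of 202, 216 and 144 in WT Control ST and of 708, 314, 203 and 123 in WT K/BxN ST. In TASTPM it was at 333, 162 and 62.7 in Control ST and at 711, 350, 147 and 138 in K/BxN ST. The groups overlapped in both genotypes. The log2 fold change was 0.56 in WT (SE 0.70, limma adjusted p = 0.851) and 0.82 in TASTPM (SE 0.70, limma adjusted p = 0.964). Without the 4 libraries it was -0.22 and -0.08, each with an SE of 0.70.

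**Figure D2:**
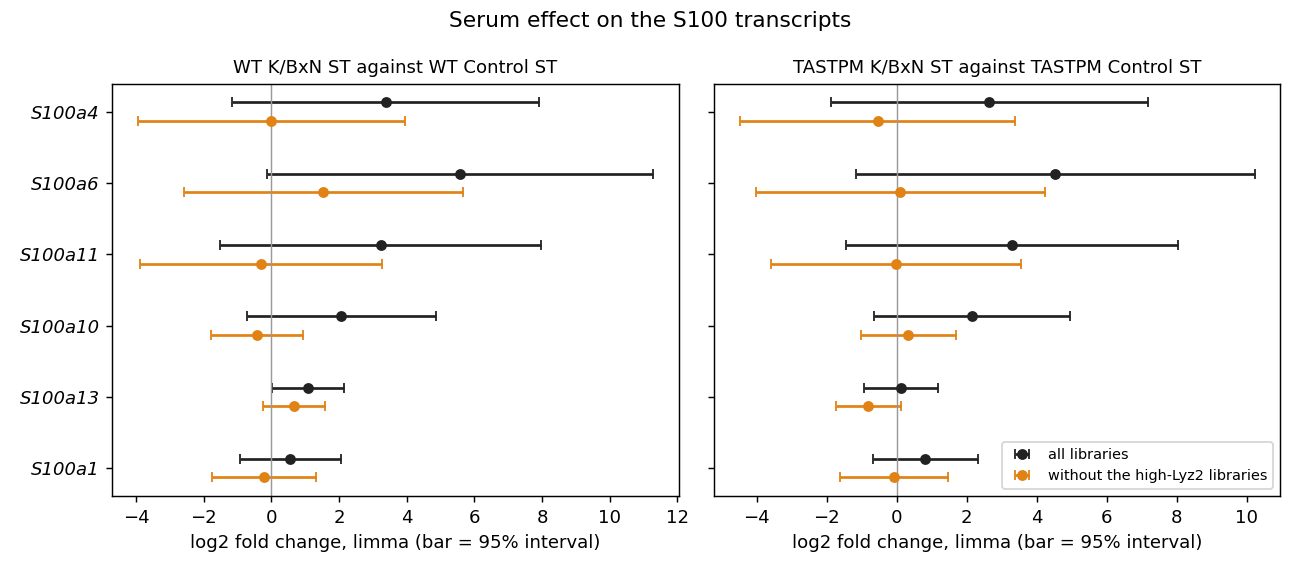
Log2 fold change of K/BxN ST against Control ST (horizontal axis) for the 6 S100 transcripts (vertical axis), in WT (left) and TASTPM (right), with 95% intervals from limma. Black points use all libraries and orange points leave out the 4 K/BxN ST libraries with Lyz2 above 100000 normalized counts. For S100a11 the black and orange values are 3.23 and -0.31 in WT, and 3.28 and -0.02 in TASTPM.

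The positive fold changes of the 5 filtered members, 5 of 5 in each genotype, stand beside 54% of all genes with a positive value in WT and 50.4% in TASTPM. Their median log2 fold change was 2.06 in WT and 2.16 in TASTPM, beside a median over all genes tested of 0.06 and 0.01. The counts and medians rest on the same 4 libraries and are a description. Among the 24 exact permutation tests between groups of libraries, 0 gave p below 0.05, and 4 against 3 or 3 against 3 libraries cannot go below 0.0571 or 0.100.

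No member passed the test between genotypes, and the intervals were wide. Under control serum, S100a13 was higher in TASTPM than in WT in every library (300 to 402 against 189 to 221 normalized counts), a pattern held by 4.97% of all genes. Its log2 fold change was 0.74 (SE 0.53, 95% interval -0.39 to 1.86, limma adjusted p = 0.933), and the 2-sided exact permutation test gave p = 0.100, the smallest that 3 against 3 libraries allow. The other 5 members overlapped between genotypes under control serum, with log2 fold changes of -0.30 for S100a1 to 0.59 for S100a10. Under K/BxN serum all 6 members overlapped, with log2 fold changes of -0.83 for S100a6 to 0.69 for S100a10. The interaction of genotype and serum was 0.05 for S100a11 and 0.10 for S100a10, but with 95% intervals of -6.66 to 6.76 and -3.85 to 4.05, so neither an equal nor a different response can be read from them. The sign for S100a10 turned under edgeR and DESeq2 and that for S100a11 with a pseudocount of 0.5. limma called 0 of 5 filtered members in each of these 3 comparisons, where 0% of all genes were called.

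Levels of different members can be compared only per length. The annotated transcripts run from 503 bases for S100a4 to 4412 for S100a13, while the coding parts are near each other, from 267 bases for S100a6 to 303 for S100a4. Per kb of transcript, S100a6 was the highest of the 6 in each of the 4 libraries with high Lyz2, at 3499 to 9791 normalized counts per kb, followed by S100a11 at 912 to 2690. Per kb of coding sequence this order did not hold in each of them: in TASTPM K/BxN ST library 2 S100a11 (11197) was above S100a6 (10221), and in WT K/BxN ST library 2 S100a10 (7709) was above S100a11 (7224). S100a6 reached the 99.3 percentile of the 14268 genes with a known length in WT K/BxN ST library 1. In the other 10 libraries S100a1 was the highest per kb of transcript in each, at 75.8 to 403, although its reads in the exons shared with S100a13 cannot be told apart. Per kb of coding sequence, S100a13 was above S100a1 in 9 of those 10 libraries and S100a10 in 5, so their order depends on the length used. Over libraries, S100a6 and S100a11 did not overlap in the 4 per kb of transcript but did per kb of coding sequence. S100a1 per kb of transcript overlapped with S100a6, S100a10, S100a11 and S100a13 in the other 10.

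The members followed each other over the 14 libraries. Pearson r of log2(normalized count + 1) between pairs ran from 0.73 for S100a1 and S100a6 to 0.97 for S100a4 and S100a10. These points share the 4 libraries with high monocyte transcripts, and the values are a description. Within those 4 libraries S100a6 was 0.829 to 2.05 times S100a11 and S100a10 was 0.554 to 1.06 times S100a11 in normalized counts. The ratio of S100a10 to Anxa2 was 0.189 to 0.263, and that of S100a6 to Ccr2 was 0.221 to 0.332.

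**Figure D3:**
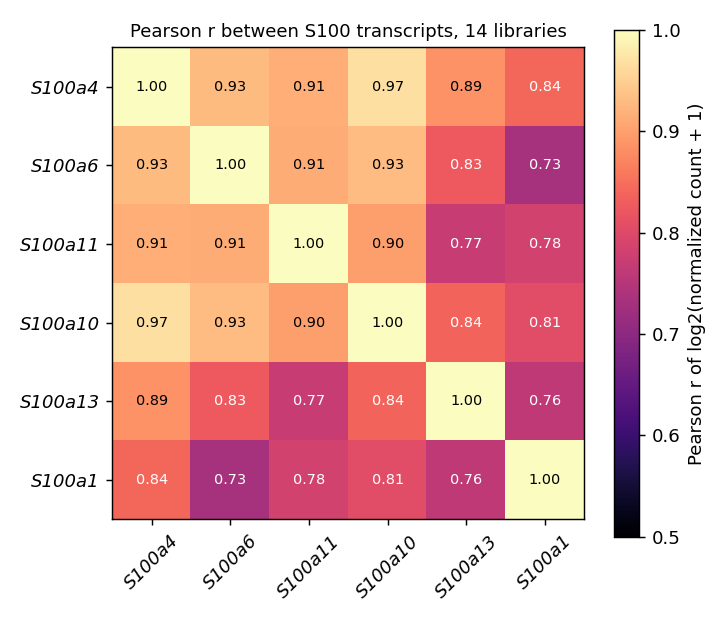
Pearson r of log2(normalized count + 1) over 14 libraries for each pair of S100 transcripts, with both axes listing the 6 transcripts and color giving r. S100a4 and S100a10 are most alike, at 0.97, and S100a1 with S100a6 least, at 0.73.

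For each member the 3 filtered genes with the highest Pearson r over the 14 libraries were taken. These r values share the 4 libraries with high Lyz2 as well and are a description. For S100a4 they were Tmsb10 (r = 0.990), which encodes the actin-binding thymosin beta 10, Emb and Lsp1. For S100a10 they were Anxa5 (r = 0.978), an annexin, Prdx5 and Taldo1. For S100a6 they were Hp (r = 0.969), which encodes haptoglobin and ran from 0.838 to 25011 normalized counts, Fxyd5 and Cnn2. For S100a11 they were Copz1 (r = 0.961), Banf1 and Arhgap26. Those for S100a13 were Mrps21 (r = 0.955), H3f3a-ps1 and Top2a, a topoisomerase of dividing cells. Those for S100a1 were Smc2 (r = 0.947), a condensin subunit, H2-D1 and Il2rg.

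Of the 5 binding partners described first, Anxa2, Anxa1 and Ahnak were far higher in the 4 libraries with high Lyz2 than in the other 10, whereas Cacybp and Myh9 overlapped. Normalized counts of Anxa2, the partner of S100a10, were 22561, 9379, 124 and 120 in WT K/BxN ST, beside 217 to 288 in WT Control ST. Those in TASTPM K/BxN ST were 20287, 7713, 141 and 103.8, beside 88.8 to 122 in TASTPM Control ST. Anxa1, the partner of S100a11, was at 3184 to 11653 in the 4 libraries with high Lyz2 and at 0.838 to 49.1 in the other 10. Ahnak, the scaffold protein bound by S100a10, was at 841 to 4339 in those 4 libraries and at 0 to 204 elsewhere. Cacybp, the partner of S100a6, was at 2156, 1490, 1057 and 1470 in WT K/BxN ST and at 3100, 1632, 1138 and 1363 in TASTPM K/BxN ST, beside 1477 to 2199 and 2155 to 2416 in the controls. The 4 libraries with high Lyz2 were thus above the other K/BxN ST libraries and overlapped with the controls. Its log2 fold changes were -0.30 in WT (SE 0.31, limma adjusted p = 0.822) and -0.42 in TASTPM (SE 0.31, limma adjusted p = 0.964). Myh9, the partner of S100a4, was at 928 to 1789, with 0.13 in WT (SE 0.24, limma adjusted p = 0.902) and 0.02 in TASTPM (SE 0.24, limma adjusted p = 0.994). Across the 14 libraries the range of S100a6, 0 to 7637, was far wider than that of Cacybp, and S100a4 was at 0 where Myh9 was not.

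Over the list of 14 annexins and other partners, 12 passed the filter and limma called 0 in WT and 0 in TASTPM. At an unadjusted p below 0.05, 1 was higher in WT, Anxa6, and 1 lower in TASTPM, Fgf1, both named after their values were seen, beside 4.77% of all genes higher in WT and 1.6% lower in TASTPM. Ahnak failed the filter and had a log2 fold change of 6.75 in WT (SE 2.68, limma unadjusted p = 0.0239, adjusted p = 0.671). Fgf1, the growth factor exported with S100a13, had 0 to 12.4 normalized counts in the TASTPM K/BxN ST libraries, beside 68.1 to 157 in the TASTPM controls. Its log2 fold change was -4.70 (SE 1.02, limma adjusted p = 0.964). The share of all genes whose TASTPM K/BxN ST libraries lay entirely below the controls was not counted. The list's median log2 fold change was 0.37 in WT and 0.42 in TASTPM. Of 6 receptors reported for secreted S100 proteins, 5 passed the filter and 0 were called in either genotype, with 1, Cd36, higher at an unadjusted p below 0.05 in WT, beside 4.77% of all genes. Tlr4 was at 2509 to 3706 normalized counts in the 4 libraries with high Lyz2 and at 3850 to 8350 in the other 10, so the 4 were the lowest. Ager, the receptor for advanced glycation end products, was at 0 in 10 of the 14 libraries and reached 51.6 in WT Control ST library 3. Of 7 genes of the plasminogen system, which the S100a10 complex binds, 5 passed the filter and 0 were called, with 0 at an unadjusted p below 0.05 in either genotype.

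Of 10 other S100 family genes looked for, 4 were in the table. S100a8 and S100a9, the neutrophil pair, did not follow the members in every library. Library 1 of WT K/BxN ST had 53594 normalized counts of S100a8, libraries 1 and 2 of TASTPM K/BxN ST had 39499 and 50146, but library 2 of WT K/BxN ST had 143. S100a9 was at 51.4 there, Ngp, a neutrophil granule gene, at 32.8 and Ly6g at 0, while Mmp8 was at 3245. In the same library S100a6 was at 4348, S100a11 at 2124, S100a10 at 2243 and S100a4 at 80.6, and Ccr2 and Ly6c2 were at 19661 and 12898. S100a1 was at 314 there, inside the range of 62.7 to 333 of the 10 libraries with low Lyz2. The part of either cell type in the values of this library was not tested. In WT K/BxN ST library 4, S100a8 was at 378 and S100a9 at 528, both above library 2. S100a11 was at 14.2 and S100a4 at 0 in library 4. S100b, the astrocyte member, ran from 0.909 to 213 normalized counts and S100a16 from 0 to 86.6, and both overlapped between Control ST and K/BxN ST in each genotype.

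**Figure D4:**
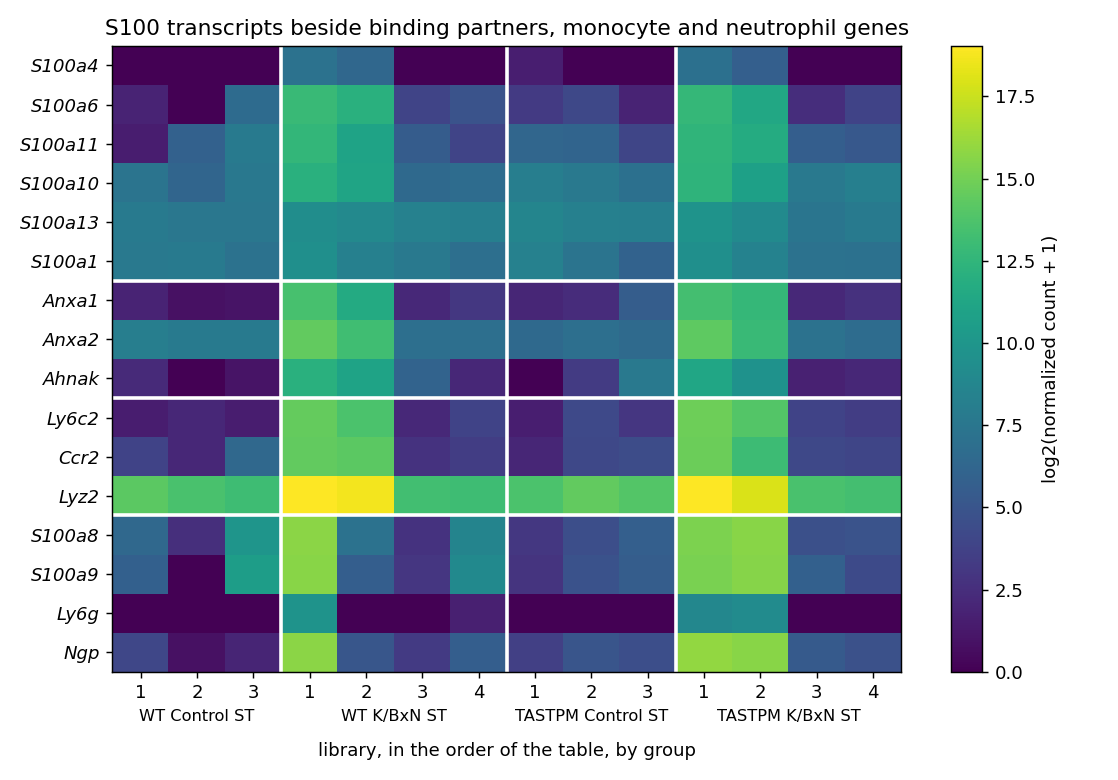
Log2(normalized count + 1), by color, of the 6 S100 transcripts, 3 binding partners, 3 monocyte genes and 4 neutrophil genes (rows) in the 14 libraries by group (columns). In WT K/BxN ST library 2, S100a6 (4348 normalized counts), Anxa2 (9379) and Ccr2 (19661) are high while S100a8 (143) and Ly6g (0) are low.

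The sequences before the start of S100a11, S100a6 and S100a4, which were high in the same libraries, were searched for common promoter motifs. They are RefSeq windows of 250 bases on the plus strand of GRCm38.p6, an earlier build than that of the counts. Both strands were searched for the AP-1 letters TGANTCA, the GC box letters GGGCGG, the TATA box letters TATAAA, the letters CCAAT, the NF-kB letters GGGANNNNCC, the ETS core letters AGGAAG and the E-box letters CACGTG, and matches on either strand are in capitals.
S100a11, chr3:93520246-93520495: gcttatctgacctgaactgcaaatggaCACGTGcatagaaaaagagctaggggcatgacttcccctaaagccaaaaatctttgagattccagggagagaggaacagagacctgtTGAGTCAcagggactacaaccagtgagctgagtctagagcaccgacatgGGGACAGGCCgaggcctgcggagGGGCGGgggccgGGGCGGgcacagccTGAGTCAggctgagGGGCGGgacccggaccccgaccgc
S100a6, chr3:90612644-90612893: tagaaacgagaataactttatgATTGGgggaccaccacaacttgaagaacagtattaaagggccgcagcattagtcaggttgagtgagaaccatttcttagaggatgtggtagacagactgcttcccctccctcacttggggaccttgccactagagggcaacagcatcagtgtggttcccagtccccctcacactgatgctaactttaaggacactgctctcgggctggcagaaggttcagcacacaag
S100a4, chr3:90603520-90603769: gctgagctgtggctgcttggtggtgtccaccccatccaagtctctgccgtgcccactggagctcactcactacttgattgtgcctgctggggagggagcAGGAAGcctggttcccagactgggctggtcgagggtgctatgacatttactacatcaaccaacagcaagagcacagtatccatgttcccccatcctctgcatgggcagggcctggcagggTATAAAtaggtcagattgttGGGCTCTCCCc
S100a11 held AP-1 letters 2 times, GC box letters 3 times and NF-kB and E-box letters once each. S100a6 held 1 CCAAT box and no other motif. S100a4 held TATA box letters 31 bases before the start, with NF-kB and ETS core letters once each. S100a1 and S100a13 held none of the 7 motifs. Of 32536 windows of the same length, AP-1 letters occurred in 6.73%, GC box letters in 33%, TATA box letters in 12.3%, CCAAT letters in 33.8%, NF-kB letters in 17.7%, ETS core letters in 29.6% and E-box letters in 6.04%. No motif was shared by all 3 windows, and a match describes letters and not a bound site. S100a10 was not matched.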

How the data were processed

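Bulk RNA-seq libraries of sorted dorsal horn microglia were compared in 4 groups. Per the labels and the study's methods, cDNA was amplified with the SMART-Seq kit, reads passed FastQC 0.11.9, were aligned with HISAT2 2.1 to mm39 and were counted with featureCounts 1.5.2. The authors deposited a signal per gene and library, namely read counts scaled by a size factor and not raw counts. Every value was a whole multiple of 1 read within 0.01, so whole reads were recovered for 100% of values. Of 14336 entries, 7 repeated an identifier and were dropped. Group came from the name above each column. Library numbers are those of the labels in TASTPM K/BxN ST and the order of the columns in the other groups.

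Genes were kept where 7 or more libraries had 10 or more reads, which left 12645, and their log2(normalized count + 1) was fitted with limma 3.58.1 (R 4.3.3, trended prior variance, 4 groups), with Benjamini-Hochberg adjustment over all genes. S100a4 was added in a second fit. edgeR 4.0.16 and DESeq2 1.42.0 were run on the recovered reads as alternatives, and all were tested on simulated data. There the spread was that of the control libraries and the change was alike in all WT K/BxN ST libraries. The simulation therefore cannot show how the tools act on K/BxN ST groups split as here. Exact permutation tests were 2-sided. Floors were 3 reads. The floors and the interval of the S100a4 ratio in TASTPM cover counting error only. Reads carry no molecular identifiers, so this error is that of reads and not of molecules. The limma intervals come from the spread between libraries. Libraries stand for mice in groups of 3 or 4, and p-values test differences of group means against the spread between libraries. Gene models are from a GENCODE annotation later than the authors' one, and sequences from GENCODE and RefSeq. The members, the gene lists and the limit of 100000 normalized counts of Lyz2 were chosen with earlier results of these data known. All 6 members were named, other list genes if they passed the test or were known partners, family members or markers shown beside a result, and the 3 genes most alike for each member.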

Additional observations from a re-analysis of the deposited data

How the results depend on the processing

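No paired analysis was possible because the label numbers run from 1 to 14 over the groups and none is shared. S100a10, S100a13 and S100a1 had 10 reads or more in all 14 libraries, so depth limits S100a4 and S100a6 more than these, and with 3 or 4 libraries a group the intervals of S100a4, S100a6 and S100a11 span several log2 units. Of 570 log2 fold changes under alternatives, 484 kept their direction and their side of the threshold, 85 turned direction or went to 0, and 1 passed the threshold. The cause was not tested.

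limma called 1 gene of 12645 in WT. It called 0 with a pseudocount of 8, with library totals, with the groups compared alone and without the 4 libraries with high Lyz2, and edgeR also called 0. DESeq2 called 127 genes with the filter and 275 without it in WT, 16 and 88 in TASTPM, 12 and 36 for the interaction and 41 and 84 between the genotypes under control serum. Among the members, DESeq2 without a filter called 1, S100a6 in TASTPM, and no member was called under any other alternative that was run. With 1 library left out at a time, limma called 0 to 17 genes in WT, the most without WT Control ST library 3, 0 to 1 in TASTPM, 0 to 3 for the interaction and 0 to 11 between the genotypes under control serum, and 0 members.

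The log2 fold changes in WT without the 4 libraries were -0.22 for S100a1, 0 for S100a4, -0.44 for S100a10 and -0.31 for S100a11. S100a6 and S100a13 stayed positive, at 1.53 and 0.66. In TASTPM the values were -0.081 for S100a1, -0.54 for S100a4, -0.022 for S100a11 and -0.81 for S100a13. S100a6 and S100a10 stayed positive there, at 0.098 and 0.34. Between the genotypes under K/BxN serum S100a4 was then at 0.

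The values that follow are ones whose direction turned against the main fit. For the interaction, edgeR gave -0.0045 for S100a1, 1.55 for S100a6 and -0.37 for S100a10. DESeq2 gave 1.56 for S100a6 and -0.36 for S100a10 with or without the filter, and a pseudocount of 0.5 gave -0.014 for S100a11. Between the genotypes under control serum, S100a6 was at -0.38 with a pseudocount of 8, at -0.40 with library totals and at -1.93 with edgeR and DESeq2, and S100a11 was at -0.10 with library totals and at -0.75 with edgeR and DESeq2. Under K/BxN serum S100a13 was at 0.0069 with edgeR and at 0.0096 and 0.0093 with DESeq2 with and without the filter.

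With 1 library left out at a time, S100a13 in TASTPM ran from -0.30 to 0.49 and was negative without K/BxN ST library 1 or 2. No other serum effect in WT or TASTPM turned, but their sizes moved. In WT they ran from 0.11 to 0.94 for S100a1, 2.12 to 4.51 for S100a4, 4.09 to 7.48 for S100a6, 1.07 to 2.92 for S100a10, 1.46 to 4.69 for S100a11 and 0.87 to 1.24 for S100a13. The lowest were without K/BxN ST library 1, except for S100a11, where it was without Control ST library 1. In TASTPM they ran from 0.20 to 1.39 for S100a1, 1.37 to 3.72 for S100a4, 2.84 to 6.23 for S100a6, 1.29 to 2.85 for S100a10 and 2.06 to 4.47 for S100a11, lowest without K/BxN ST library 1, or Control ST library 3 for S100a1. For the interaction the ranges were -0.37 to 0.83 for S100a1, -0.77 to 1.08 for S100a10, -1.40 to 1.82 for S100a11, -2.01 to 0.54 for S100a4 and -2.95 to 0.66 for S100a6. The range for S100a13, -1.38 to -0.59, did not reach 0. Between the genotypes under control serum the ranges were -0.87 to 0.33 for S100a1, -1.35 to 1.75 for S100a11, 0 to 0.81 for S100a4 and -1.22 to 2.12 for S100a6. Those for S100a10 and S100a13 were 0.18 to 0.88 and 0.60 to 0.81. Under K/BxN serum the ranges were -0.51 to 0.42 for S100a1, -0.18 to 1.67 for S100a10, -0.99 to 1.91 for S100a11, -0.64 to 0.14 for S100a13, -1.47 to 1.08 for S100a4 and -2.52 to 0.87 for S100a6.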
